A study of Mus musculus with 14 samples.

Results

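The comparison described here set germinal centre B cells of mice with 1 floxed allele of Crebbp against those of mice with none. It used 9 of the 14 arrays of the series, the 5 heterozygous (HET) arrays and the 4 wild-type (WT) arrays, chosen by their titles. WT mice were Crebbp+/+ Cg1-Cre (3 females and 1 male), HET mice were Crebbpfl/+ Cg1-Cre (3 females and 2 males), and the 5 remaining arrays came from Crebbpfl/fl Cg1-Cre mice (KO, 2 females and 3 males), which serve below only as a reference. All carried the Cg1-Cre transgene, which is expressed in activated B cells that transcribe the gamma 1 constant region, so WT mice share the recombinase and differ in having 0 floxed alleles. The mice were of mixed C57BL/6x129Sv background, 8 to 12 weeks old, were immunised on days 0 and 5 with sheep erythrocytes, and were killed on day 12. Splenic B cells were enriched and sorted as B220+CD95+PNA+ from each mouse separately. From each mouse 25 ng of RNA was amplified, and the labelled cDNA went onto 1 Affymetrix mouse expression array. Values are log2 intensities, and each gene is shown by its brightest probe set, judged by the mean of 14 arrays, among probe sets that name 1 gene. The question the comparison addresses is whether loss of 1 copy of Crebbp, a frequent target of mutation in germinal centre lymphomas, is accompanied by altered transcript levels.

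Crebbp encodes the CREB-binding protein (CBP), a lysine acetyltransferase that is recruited by sequence-specific transcription factors, among them CREB, and that acetylates histones at enhancers and promoters as well as factors such as BCL6 and p53. EP300 is its closest relative and shares many of its sites. In the germinal centre, B cells divide and mutate their antibody genes in the dark zone, and compete for antigen and for help from T cells in the light zone, where antigen receptor, CD40 and MHC class II genes matter for selection.

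A gene was tested if its mean over the 14 arrays lay above the median of all non-control probe sets, 6.43, and 10225 genes met this. Each change is the HET minus WT difference in log2 units from limma with sex held constant, with its standard error (SE). At a Benjamini-Hochberg adjusted p under 0.05 limma called 0 of the 10225 genes (0%), and the smallest adjusted p was 0.214. At an unadjusted p under 0.05 there were 280 genes (2.74%), 172 higher (1.68%) and 108 lower (1.06%) in HET mice, where independent genes without any difference would give about 511. Arrays of the 2 groups did not overlap for 105 genes that were higher (1.03%) and 48 that were lower (0.469%) in HET mice. With limma's array weights, which count noisier arrays less, 6 genes were called (0.0587%), namely Clec16a, Fmn2, Ptgr1, Ldlrad4, Poglut2 and 2610507I01Rik. Among the 9 arrays the weights were lowest for WT 4, the only WT male (0.39), and HET 4 (0.52), and highest for WT 2 (3.35). With the replicate number as a block 1 gene, Fmn2, was called. For the same genes KO against WT gave 249 calls (2.44%) and KO against HET 27 (0.264%). KO changes printed below share the WT arrays with the HET changes, and KO minus HET differences share the HET arrays, so the columns of values are not independent of each other.

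The promoters of 3 of the genes described below are shown first, because they belong to the genes with the smallest p and the largest change among higher genes, Clec16a and Fmn2, and to Nr4a1, a known target of CREB among the lower ones. Each is the stretch of 250 bases before the annotated start in RefSeq GRCm38.p6, on the plus strand, and capitals mark the CREB half-site TGACG or its reverse complement CGTCA. The windows are chr16:10545089-10545338 for Clec16a, chr1:174501575-174501824 for Fmn2 and chr15:101266596-101266845 for Nr4a1.
Clec16a: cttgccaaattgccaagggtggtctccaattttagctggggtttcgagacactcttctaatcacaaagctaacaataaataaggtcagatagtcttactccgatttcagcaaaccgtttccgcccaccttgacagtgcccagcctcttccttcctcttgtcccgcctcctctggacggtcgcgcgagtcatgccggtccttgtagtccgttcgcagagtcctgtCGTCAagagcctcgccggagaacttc
Fmn2: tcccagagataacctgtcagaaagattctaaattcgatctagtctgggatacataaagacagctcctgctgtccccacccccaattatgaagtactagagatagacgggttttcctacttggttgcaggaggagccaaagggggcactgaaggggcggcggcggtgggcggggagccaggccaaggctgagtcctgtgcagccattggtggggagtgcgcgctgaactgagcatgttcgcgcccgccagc
Nr4a1: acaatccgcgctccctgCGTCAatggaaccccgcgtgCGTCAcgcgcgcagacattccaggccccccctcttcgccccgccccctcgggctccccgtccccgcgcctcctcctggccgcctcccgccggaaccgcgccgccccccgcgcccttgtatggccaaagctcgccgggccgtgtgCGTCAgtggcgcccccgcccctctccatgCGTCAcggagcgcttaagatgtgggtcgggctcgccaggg
The half-site occurs 1 time before Clec16a, 0 times before Fmn2 and 4 times before Nr4a1. Of the 12 higher genes with the smallest p, 9 were in the promoter table and 1 of them (11.1%) held the half-site, while 5 of the 12 lower genes (41.7%) did. Over all genes of the table the share was 5347 of 27025 (19.8%), counting either strand. That share includes genes below the intensity filter, and the share among tested genes alone was not computed. A match in these windows is a description and not a binding site, and binding was not measured.

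Crebbp was measured by 4 probe sets above the intensity filter, and their position relative to the floxed exons is not given in the sources used here. Only 1 of them, the third in brightness, passed the test in HET mice. It read 10.34, 10.36, 10.19 and 10.28 in WT 1 to 4, and 10.20, 10.01, 9.90, 9.81 and 9.82 in HET 1 to 5. HET 1 lay just above the lowest WT array, and the other HET arrays lay below all WT arrays. Its mean fell from 10.29 ± 0.08 (SD, n = 4) to 9.95 ± 0.17 (SD, n = 5), a change of -0.34 (SE 0.09) that left 79.1% of WT, and limma gave an adjusted p = 0.00973 over the 4 sets. Adjusted over every probe set above the filter, the same probe set did not pass. In KO mice its mean was 9.42 ± 0.10 (SD, n = 5), and the KO minus HET difference was -0.52 (SE 0.09, adjusted p = 0.000145 in limma over the same 4).

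**Figure D1:**
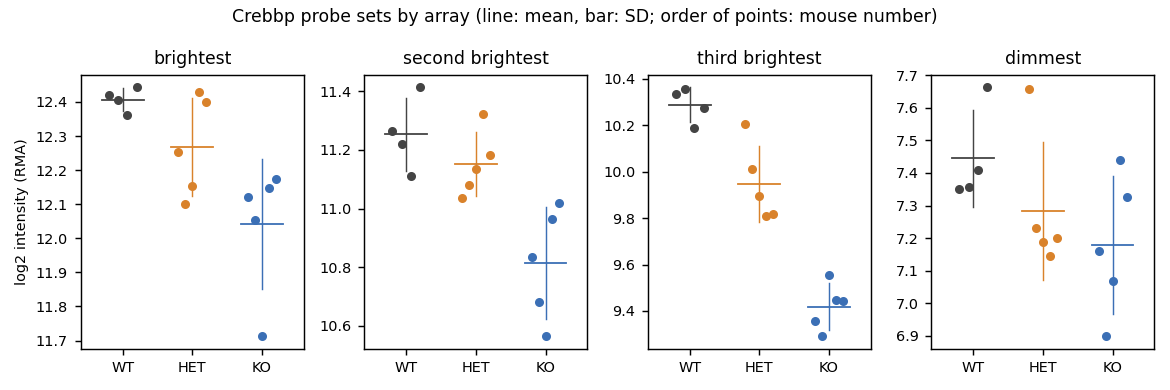
Log2 intensity of the 4 Crebbp probe sets (panels, by brightness) in each WT, HET and KO array (points), with group means (lines) and SD (bars). On the third brightest probe set 4 of the 5 HET arrays lie below all WT arrays, while on the brightest HET 4 and HET 5 read 12.43 and 12.40, within the WT range.

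The brightest Crebbp probe set read 12.42, 12.40, 12.36 and 12.44 in WT mice and 12.25, 12.10, 12.15, 12.43 and 12.40 in HET mice. HET 1 to 3 lay below the WT range and HET 4 and 5 inside it, and the change was -0.16 (SE 0.09, adjusted p = 0.220 in limma), 89.6% of WT. The second brightest differed by -0.12 (SE 0.10, adjusted p = 0.258 in limma), and the dimmest by -0.18 (SE 0.13, adjusted p = 0.254 in limma). Against the HET arrays the KO arrays were lower on the brightest 3 probe sets, by limma adjusted p of 0.0179, 0.00414 and 0.000145, but the dimmest did not pass (0.320). Ep300 differed by -0.07 (95% interval -0.33 to 0.20). In these bulk arrays fewer cells of a type and less RNA per cell cannot be told apart, here and for each gene below.

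The sorted cells carried the genes listed as markers of germinal centre B cells in all 9 arrays. All 8 of the 8 germinal centre markers with a named probe set were above the filter, and their summed linear intensity ran from 46564 to 48538 in WT and from 45542 to 47296 in HET mice. Bcl6, the repressor that defines this cell state, read 13.03, 12.97, 13.08 and 12.99 in WT and 13.05, 12.92, 13.04, 13.03 and 13.01 in HET mice, a change of -0.01 (95% interval -0.12 to 0.10). The groups overlapped fully for Bcl6, while Rgs13, of the same list, had every HET array below every WT array. For erythroid cells 0 of 3 measured markers were above the filter, for T cells 2 of 6, for NK cells 1 of 4 and for platelets 1 of 4. Counts were 2 of 6 for macrophages and monocytes and 2 of 6 for neutrophils. Other lists had more markers above it, with 5 of 6 for plasma cells, 5 of 6 for marginal zone and 3 of 4 for naive follicular B cells. Dendritic cells had 3 of 5, and follicular dendritic cells and stroma 4 of 7. Neutrophil markers varied between mice rather than between groups, with sums of 292 to 1737 in WT and 281 to 1772 in HET mice, carried by S100a8 and S100a9. The monocyte gene Lyz2 ranged from 6.52 to 9.71 in WT and from 6.48 to 10.32 in HET mice. Median correlations of the 9 arrays with the others lay between 0.986 and 0.990 over tested genes, and HET 3 was the least correlated over all probe sets, at 0.984. The median SD per gene was 0.12 in both groups.

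Clec16a had the smallest p of the 10225 named genes tested. It encodes a membrane-associated protein of endosomes and lysosomes involved in autophagy and mitophagy. It read 6.86, 6.86, 7.16 and 6.97 in WT 1 to 4 and 7.86, 7.84, 7.58, 7.70 and 7.72 in HET 1 to 5. All HET arrays lay above all WT arrays, with a gap of 0.42 between the nearest ones, the widest among genes higher in HET mice. The change was 0.78 (SE 0.13, 95% interval 0.50 to 1.06), 1.72-fold, with limma adjusted p = 0.214. Leaving out each array in turn gave 0.74 to 0.84, and females alone gave 0.75. In KO mice the change was 1.20, and the KO minus HET difference of 0.42 did not pass (limma adjusted p = 0.336). Clec16a lies on the chromosome of Crebbp, 47 protein-coding genes away from it.

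Fmn2, a formin that nucleates actin filaments, had the largest change among genes at an unadjusted p under 0.05. WT mice read 5.96, 5.80, 6.36 and 6.55 and HET mice 7.23, 6.80, 7.67, 7.52 and 7.26. The groups did not overlap, with a gap of 0.24. The WT mean of 6.17 lay below the intensity filter, so this gene was tested because of its level in mice with floxed alleles. The change was 1.12 (SE 0.20, 95% interval 0.70 to 1.55), 2.18-fold, with limma adjusted p = 0.214, or 0.0130 with the replicate number as a block and 0.0204 with array weights. Its KO change was 2.05, and KO minus HET was 0.92 (limma adjusted p = 0.0635).

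Ptgr1, an NADPH-dependent reductase that inactivates leukotriene B4 and prostaglandin metabolites, was measured at 10.30, 10.45, 10.55 and 10.11 in WT and 10.60, 10.79, 10.85, 10.50 and 10.98 in HET mice. HET 4 lay below WT 3, so the groups overlapped by that 1 pair of arrays. The difference was 0.43 (SE 0.07), 1.35-fold, with limma adjusted p = 0.214. KO mice differed from HET mice by a further 0.37 (limma adjusted p = 0.0528).

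Thbd, thrombomodulin, a cell-surface receptor for thrombin, read 6.97, 7.08, 6.67 and 6.91 in WT and 7.30, 7.52, 7.52, 7.23 and 7.56 in HET mice. No array overlapped between the groups, and the change was 0.53 (SE 0.11), 1.45-fold, with limma adjusted p = 0.576. Tlcd5, a membrane protein with a TLC domain, read 7.54, 6.65, 6.93 and 7.44 in WT and 8.07, 7.89, 8.01, 8.37 and 8.12 in HET mice. Its groups were apart by 0.35 while the WT arrays themselves spread over more than that. The HET change of Tlcd5 was 0.91 (SE 0.20), 1.88-fold (limma adjusted p = 0.806), and KO mice exceeded HET mice by 1.10 (limma adjusted p = 0.0453).

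Thyn1, a nuclear protein first described in thymocytes, read 9.03, 8.97, 8.78 and 9.06 in WT and 9.17, 9.50, 9.41, 9.43 and 9.47 in HET mice. HET 1 was the HET array nearest to WT, and no array overlapped. The change was 0.44 (SE 0.09, limma adjusted p = 0.701), and KO mice lay 0.58 above HET mice (limma adjusted p = 0.0291). Poglut2, an enzyme of the endoplasmic reticulum that adds glucose to EGF repeats, differed by 0.51 (SE 0.12, limma adjusted p = 0.806) with no overlap, and its second probe set had the same sign. KO mice lay 0.63 above HET mice for Poglut2 (limma adjusted p = 0.0453). Ldlrad4, an inhibitor of TGF-beta signalling, differed by 0.47 (SE 0.10) with no overlap, and its limma adjusted p of 0.623 became 0.0259 with array weights.

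The remaining 4 of the 12 higher genes with the smallest p were Dab2ip, a Ras GTPase-activating protein, at 0.33, Ptpn9, a tyrosine phosphatase, at 0.34, Tfdp2, the dimer partner of E2F factors, at 0.32 and Rabl2, a small GTPase of cilia, at 0.28. Over all 12 genes the HET changes ran from 0.28 to 1.12 and the KO changes from 0.50 to 2.05. No overlap between HET and WT arrays was seen for 9 of the 12, against 1.03% of all genes. The KO minus HET difference passed in limma for 5 of the 12, namely Thyn1, Tlcd5, Poglut2, Dab2ip and Ptpn9, against 0.264% of all genes. Since the 12 were chosen for their HET values, these counts describe them and test nothing.

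**Figure D2:**
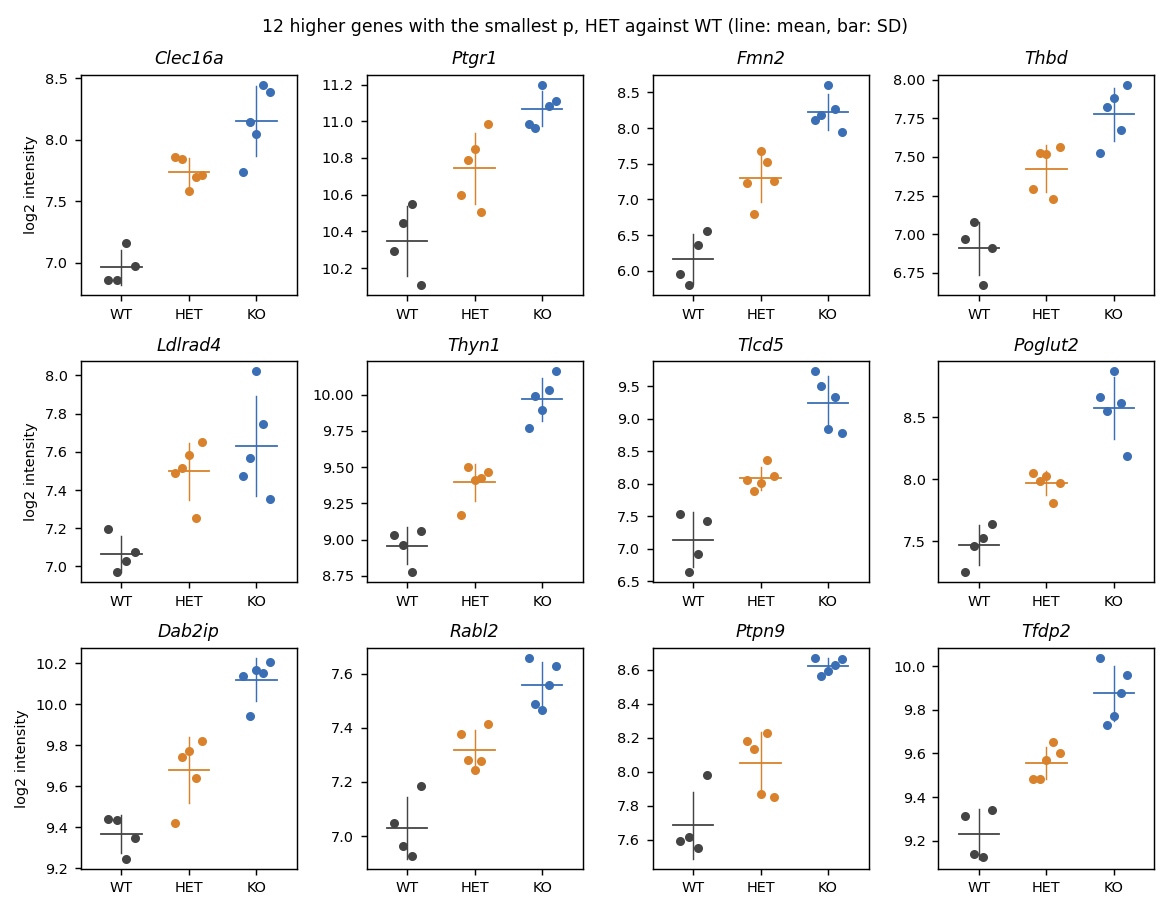
Log2 intensity of the 12 higher genes with the smallest p in each WT, HET and KO array (points in mouse order), with group means (lines) and SD (bars). Clec16a HET arrays sit between 7.58 and 7.86, all above the WT arrays, and Ptgr1 shows the overlap of HET 4 at 10.50 with WT 3 at 10.55.

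By size of change the other 2 higher genes in the largest 5 were Dmxl2, a regulator of the vacuolar proton pump, and Faah, which hydrolyses anandamide. Dmxl2 read 6.30, 5.64, 6.16 and 6.53 in WT and 7.17, 6.66, 6.27, 8.46 and 6.62 in HET mice. HET 4 alone stood high and HET 3 lay inside the WT range, and the change of 0.77 had an SE of 0.32. The WT mean of 6.16 lay below the intensity filter, so Dmxl2 too was tested because of its level in mice with floxed alleles. Faah differed by 0.65 (SE 0.18), with WT 4 at 6.99 inside the HET range that began at 6.94. Nedd4, a ubiquitin ligase, and Raph1, lamellipodin, completed the 5 widest gaps, both with a gap of 0.22, and changes of 0.54 (SE 0.21) and 0.44 (SE 0.11). Both other probe sets of Raph1 had the same sign.

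Among lower genes the smallest p belonged to Gstp3, a glutathione S-transferase of the pi class. It read 7.66, 7.77, 7.59 and 7.61 in WT and 7.34, 7.36, 7.43, 7.46 and 7.39 in HET mice. The groups were apart by 0.13, and the change was -0.26 (SE 0.06), 83.7% of WT, with limma adjusted p = 0.853. In KO mice Gstp3 differed from WT by -0.39.

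Myo1f, an unconventional myosin of leukocytes, read 7.50, 7.51, 7.67 and 7.79 in WT and 7.19, 7.37, 7.16, 7.36 and 7.17 in HET mice. It also had a gap of 0.13, with a change of -0.38 (SE 0.10) and limma adjusted p = 1.00. Rnf183, a ubiquitin ligase, read 7.39, 7.63, 7.29 and 8.52 in WT and 7.29, 7.12, 7.10, 7.18 and 7.24 in HET mice. WT 4, the only WT male, stood above the other WT arrays, and WT 3 and HET 1 nearly coincided. The Rnf183 change of -0.57 (SE 0.16) was -0.28 without WT 4.

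Nr4a1, an orphan nuclear receptor induced by antigen receptor and cAMP signals, read 6.88, 6.81, 6.97 and 7.37 in WT and 6.95, 6.76, 6.67, 6.69 and 6.47 in HET mice. HET 1 lay among the WT arrays and the other HET arrays below them. The change was -0.33 (SE 0.10, unadjusted p = 0.00593, limma adjusted p = 1.00), 79.5% of WT, against -0.86 in KO mice, and the KO minus HET difference of -0.53 passed (limma adjusted p = 0.0453). Ifnlr1, a subunit of the lambda interferon receptor, read 7.95, 7.88, 7.51 and 7.98 in WT and 7.69, 7.45, 7.20, 7.64 and 7.56 in HET mice. WT 3 lay inside the HET range. Its HET change was -0.35 (SE 0.11), and KO mice lay 0.67 below HET mice, written as a KO minus HET difference of -0.67 (limma adjusted p = 0.0291).

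BC028528, which encodes a small protein expressed in blood cells, read 10.80, 10.73, 10.81 and 10.73 in WT and 10.45, 10.56, 10.60, 10.47 and 10.61 in HET mice. The groups were apart by 0.11. The HET change was -0.22 (SE 0.07), and KO minus HET was -0.34 (limma adjusted p = 0.0459). Gch1, the first enzyme of tetrahydrobiopterin synthesis, differed by -0.45, with HET 5 at 5.98 lowest and HET 1 at 6.73 inside the WT range. Its HET and KO means of 6.37 and 6.22 lay below the intensity filter, so Gch1 was tested because of its level in WT mice. Mpeg1, perforin-2, an antibacterial pore protein of phagocytes and B cells, differed by -0.32, with WT 4 at 8.81 inside the HET range.

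The other 4 lower genes with the smallest p were Angptl6, a secreted angiopoietin-like protein, at -0.24, Rap1gap, which turns off the GTPase RAP1, at -0.34, Dennd11, a DENN-domain protein, at -0.33 and P2ry10, a lysophospholipid receptor, at -0.18. Over the 12 lower genes HET changes ran from -0.57 to -0.18 and KO changes from -1.03 to -0.22. HET and WT arrays did not overlap for 6 of the 12, against 0.469% of all genes. KO minus HET passed in limma for 3 of the 12, Nr4a1, BC028528 and Ifnlr1, against 0.264% of all genes. These 12 too were chosen for their HET values, so the counts describe them and test nothing. Angptl6 and Rap1gap had HET changes as large as their KO changes of -0.23 and -0.25.

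**Figure D3:**
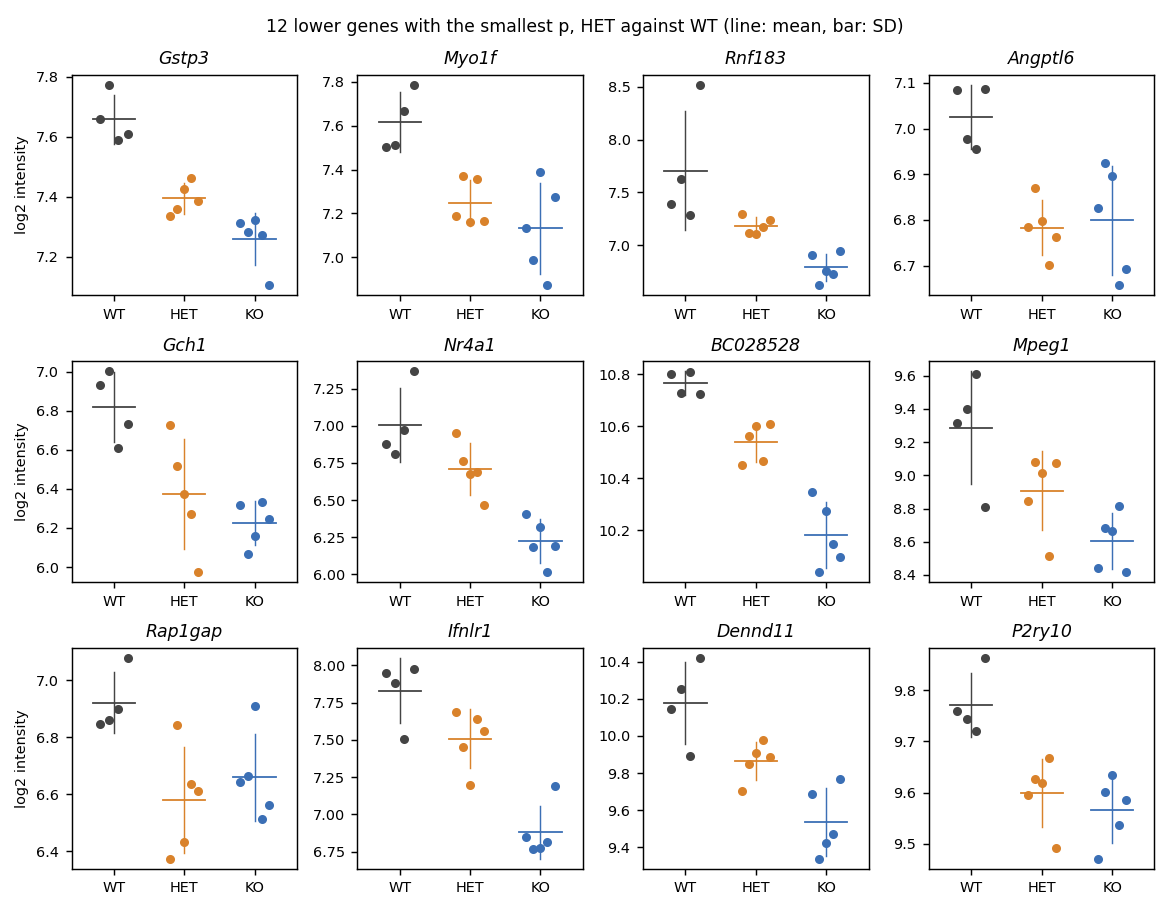
Log2 intensity of the 12 lower genes with the smallest p in each WT, HET and KO array (points in mouse order), with group means (lines) and SD (bars). Gstp3 HET arrays lie between 7.34 and 7.46, below all WT arrays, and the Rnf183 panel shows WT 4 at 8.52, above the other WT arrays.

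By size the 5 lower genes were Smoc1, a matricellular calcium-binding protein, Crisp3, a cysteine-rich secretory protein, Rnf183, Nrarp, an inhibitor and target of NOTCH signalling, and Tns3, a tensin of focal adhesions. Smoc1 read 7.04, 6.86, 6.84 and 6.98 in WT and 6.86, 6.06, 6.00, 6.40 and 5.87 in HET mice. HET 1 lay within the WT range and the other HET arrays below it, and the change was -0.69 (SE 0.27). The KO change of Smoc1 was -0.19. Nrarp read 6.74, 6.70, 6.98 and 7.01 in WT and 6.57, 6.36, 6.05, 6.52 and 6.34 in HET mice. It had the widest gap of any lower gene, 0.14, with a change of -0.54 (SE 0.21) in HET mice and -0.54 in KO mice. The HET means of Smoc1 and Nrarp, 6.24 and 6.37, lay below the intensity filter, so both were tested because of their levels in the other groups. Crisp3 differed by -0.69 (SE 0.28), with HET 4 and HET 5 at 7.48 and 7.83 inside the WT range, and Tns3 by -0.50 (SE 0.19), or -0.30 without WT 4. Zbtb32, a transcriptional repressor of B cells, had no overlap and a change of -0.27 (SE 0.09).

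Gene lists were chosen for this tissue with earlier results of these data known, so their counts describe these arrays and test nothing. They are given beside those of all genes, of which 49.3% had a negative HET change, with a median of 0.00. Across all 24 lists limma called 0 genes at the adjusted threshold. Of the genes with a role in selection in the light zone, 22 were tested and 20 were negative, at a median of -0.11. In females alone that median was -0.06, and without WT 4 it was -0.07. Only 1 gene of the list, Nr4a1, was at an unadjusted p under 0.05. The median KO change of the same genes was -0.30. Averaged over the list, HET 1 to 5 stood at -0.09, 0.01, -0.13, -0.20 and -0.19 from the WT mean, and the WT arrays between -0.04 and 0.07. HET 2 lay inside the WT range and the other HET arrays below it. Egr2, an early growth response factor, differed by -0.23 (SE 0.11), and Slamf1, a surface receptor of lymphocytes, by -0.16 (SE 0.07), or -0.06 without WT 4. Of the dark zone genes 11 of 16 were negative, with a median of -0.03. The proliferation marker Mki67 differed by -0.10 (SE 0.07) and the mitotic cyclin Ccnb2 by 0.06 (SE 0.06).

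Among CD40 and NF-kB genes the change was negative for 17 of 19, the median being -0.10, or -0.01 in females alone and -0.02 without WT 4. Map3k8, a kinase that links this pathway to ERK, read 7.88, 7.97, 8.09 and 8.47 in WT and 8.02, 7.92, 7.23, 7.67 and 7.72 in HET mice. HET 1 and 2 lay inside the WT range and HET 3 to 5 below it, and the change was -0.43 (SE 0.14, unadjusted p = 0.00925, limma adjusted p = 1.00). Tnfaip3, a feedback inhibitor of NF-kB, differed by -0.22 (SE 0.14), Cd40, the receptor for T cell help, by -0.12 (SE 0.12), and Birc3, an inhibitor of apoptosis, by -0.10 (SE 0.08). As means over the list, HET 1 to 5 stood at -0.03, 0.01, -0.14, -0.18 and -0.15. The WT arrays ranged from -0.10 to 0.11, so HET 1 and 2 were inside that range.

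For MHC class II, 13 of 15 tested genes were negative, with a median of -0.05 and 0 genes at an unadjusted p under 0.05. The median KO change was -0.21. The transactivator Ciita differed by -0.16 (SE 0.10), or -0.07 without WT 4 and -0.02 with array weights. Only 1 of the 2 other Ciita probe sets above the filter had the same sign. H2-DMa, which loads peptides, differed by -0.12 (SE 0.07), and the beta chains H2-Eb1 and H2-Ab1 by -0.09 (SE 0.06) and -0.06 (SE 0.05). As list means HET 1 to 5 stood at -0.06, -0.01, -0.05, -0.13 and -0.09, while the WT arrays lay within 0.01 of their mean. HET 2 lay at the WT level and the other HET arrays below the WT range. Of the MHC class I genes 11 of 14 were negative, with a median of -0.06, with H2-K1 at -0.12 (SE 0.06), H2-D1 at -0.10 (SE 0.06) and B2m at -0.07 (SE 0.06).

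**Figure D4:**
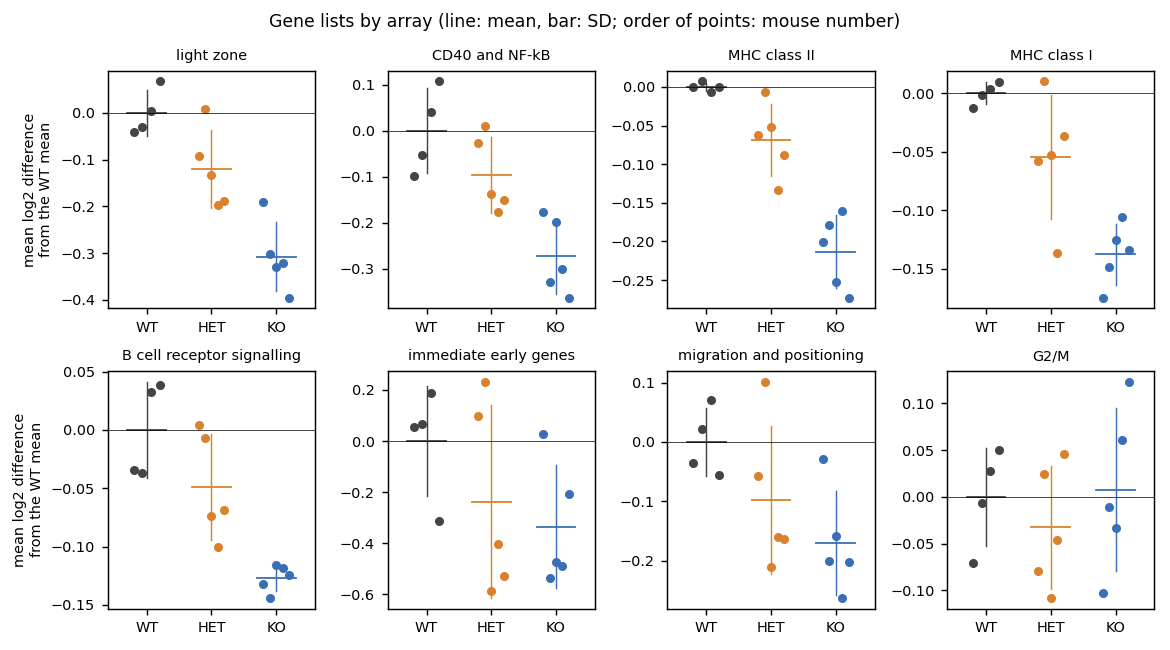
Mean log2 difference from the WT mean over the members of 8 gene lists (panels) in each array (points in mouse order), with group means (lines) and SD (bars). HET 2 lies at the level of WT mice for the light zone list (0.01), and HET 3 to 5 are the lowest HET arrays for immediate early genes (-0.59, -0.40 and -0.53).

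Among B cell receptor signalling genes 19 of 22 were negative, and the median was -0.06. Cd79a, the signalling chain of the receptor, differed by -0.05 (SE 0.06), the inhibitory coreceptor Cd22 by -0.10 (SE 0.07) and the adaptor Dapp1 by -0.15 (SE 0.10). Of the cAMP signalling and CREB target genes 15 of 21 were negative, with a median of -0.04. Nr4a1 was the only member at an unadjusted p under 0.05. Per1, a clock gene induced by CREB, differed by -0.19 (SE 0.10), or -0.07 without WT 4, and Prkaca, the catalytic subunit of protein kinase A, by 0.14 (SE 0.07).

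Of the immediate early genes 13 of 16 were negative, the median was -0.19, and their levels spread widely between mice of 1 genotype. Fos, named after its values were seen, had the largest change of all tested genes, -1.27, with an SE of 1.02 and an unadjusted p of 0.237. It read 12.13, 12.12, 12.41 and 9.10 in WT and 12.10, 12.26, 7.73, 9.998 and 8.73 in HET mice. HET 1 and 2 matched WT 1 to 3, while HET 3 to 5 and WT 4 read low. List means were 0.10, 0.23, -0.59, -0.40 and -0.53 in HET 1 to 5 and 0.06, 0.07, 0.19 and -0.31 in WT 1 to 4. Zfp36, which destabilises cytokine RNA, differed by -0.41 (SE 0.21), Junb by -0.28 (SE 0.14) and Ier5 by -0.16 (SE 0.07). Only 1 of the 2 other Ier5 probe sets above the filter had the same sign. Markers of naive follicular B cells, of which 3 were tested, had list means of 0.00, 0.19, -0.15, -0.46 and -0.23 in HET 1 to 5, with the same 3 arrays lowest. Their part in the values of the light zone, CD40 and immediate early genes was not tested.

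Of the genes of migration and positioning 16 of 21 were negative, with a median of -0.06. Selplg, the ligand of P-selectin, differed by -0.33 (SE 0.15) and S1pr1, the receptor that guides exit from lymphoid tissue, by -0.40 (SE 0.19). S1pr1 read 6.65, 6.53, 6.65 and 6.79 in WT and 6.26, 6.95, 6.15, 5.90 and 6.06 in HET mice. HET 2 was above all WT arrays and the other HET arrays were below them and below the intensity filter. The KO change of S1pr1 was 0.17. Rgs2, a regulator of G protein signalling, differed by -0.13 (SE 0.08). Rgs13, a regulator of chemokine receptor signals in germinal centre B cells, had no overlap, with WT mice at 11.77, 11.80, 11.88 and 11.78 and HET mice at 11.71, 11.52, 11.67, 11.76 and 11.63. Its change of -0.15 (SE 0.12) compared with -0.62 in KO mice.

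Transcription factors of the germinal centre B cell were near their WT levels, with 15 of 20 negative and a median of -0.02. Myb, a factor of cycling cells, differed by 0.11 (SE 0.08), Irf8 by -0.12 (SE 0.11, or -0.05 without WT 4) and Spib by -0.06 (SE 0.06). Only 1 of the 2 other Myb probe sets above the filter had the same sign. Myc, which drives growth of selected cells, read 8.85, 8.86, 8.70 and 9.53 in WT and 8.75, 8.90, 8.09, 9.01 and 8.96 in HET mice. WT 4 was the highest and HET 3 the lowest, and the other arrays of both groups overlapped, with a change of -0.31 (SE 0.33).

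In the plasma cell list 7 of 10 genes were negative, and Sdc1 was the exception at an unadjusted p under 0.05. Sdc1, syndecan 1, the surface marker CD138, read 8.09, 8.14, 7.67 and 7.82 in WT and 8.57, 8.97, 8.47, 7.93 and 8.15 in HET mice. HET 4 lay inside the WT range and HET 5 just above it, with a change of 0.52 (SE 0.18, unadjusted p = 0.0132, limma adjusted p = 1.00). Irf4 and Prdm1, the factors that drive plasma cell formation, differed by -0.15 (SE 0.08) and -0.23 (SE 0.15).

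Chromatin genes that are mutated in B cell lymphoma had a median of -0.05, which was positive without HET 1 and, at 0.01, without HET 3, with 9 of 14 negative, and Kdm5b alone was at an unadjusted p under 0.05. Kdm5b, a demethylase of histone H3 lysine 4, read 6.80, 6.71, 6.12 and 6.91 in WT and 7.32, 7.17, 7.05, 7.50 and 6.79 in HET mice. HET 5 lay inside the WT range and the other HET arrays above it. The change was 0.48 (SE 0.15, unadjusted p = 0.00554, limma adjusted p = 1.00), against 1.26 in KO mice, and KO minus HET was 0.78 (limma adjusted p = 0.0453). The DNA methyltransferase Dnmt3a differed by 0.23 (SE 0.12) and the Polycomb subunit Suz12 by -0.11 (SE 0.09). Among acetyltransferases and partners 8 of 14 were negative, with Kat2b at 0.17 (SE 0.15) and Ncoa1 at -0.07 (SE 0.05). Among deacetylases and corepressors 10 of 15 were negative, with Hdac5 at -0.24 (SE 0.15) and Hdac7 at -0.13 (SE 0.08), or -0.06 and -0.04 without WT 4.

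**Figure D5:**
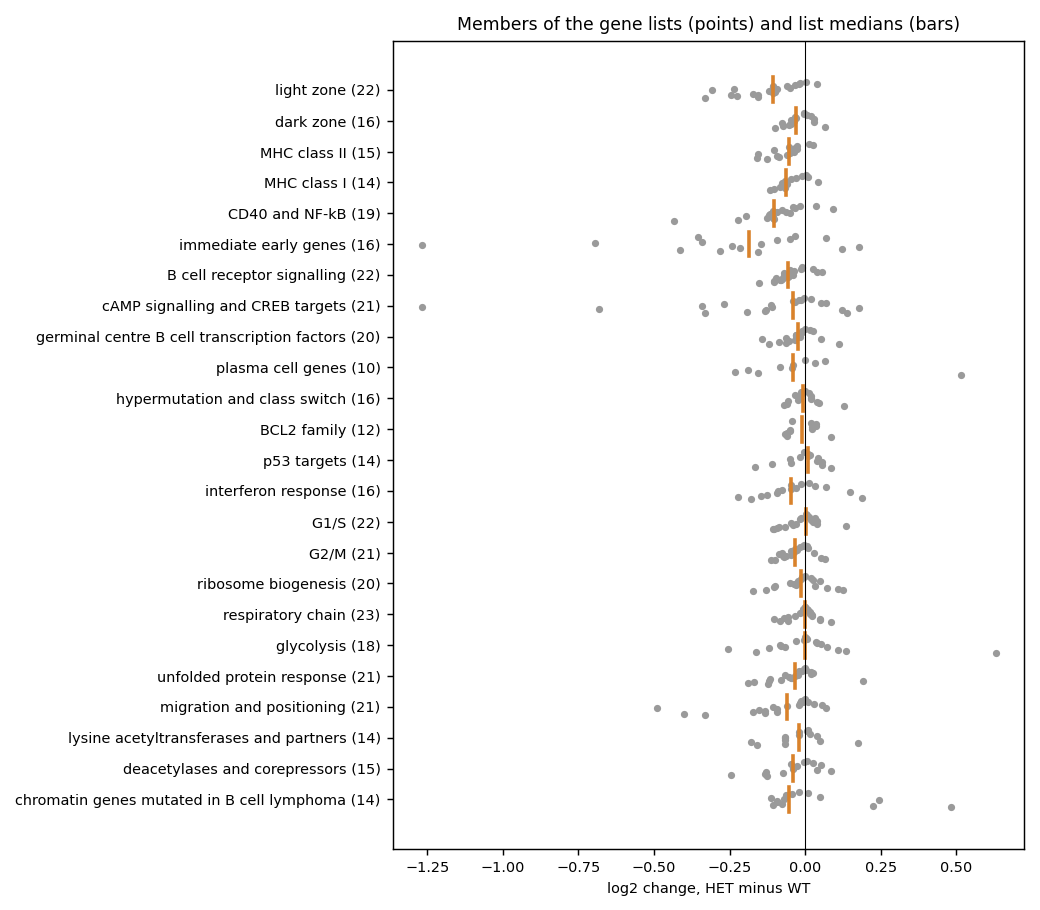
HET minus WT log2 change of each tested member (points) of the 24 gene lists, with the number tested in brackets and the list median as a bar. The medians of the light zone (-0.11), CD40 and NF-kB (-0.10) and immediate early (-0.19) lists lie farthest below 0, and the point at -1.27 is Fos. Without WT 4 the median of CD40 and NF-kB was -0.02 and that of the light zone -0.07.

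Lists of the cell cycle and metabolism had medians close to 0. Of the G1/S genes 10 of 22 were negative (median 0.00), with Mcm3, part of the replicative helicase, at -0.11 (SE 0.06) and Gins1 at -0.10 (SE 0.07). Of the G2/M genes 16 of 21 were negative (median -0.03), with Cenpf, a kinetochore protein, at -0.11 (SE 0.08). Of the ribosome biogenesis genes 13 of 20 were negative (median -0.01). Odc1, the first enzyme of polyamine synthesis, was the only member of that list at an unadjusted p under 0.05, with 12.29, 12.37, 12.47 and 12.31 in WT and 12.22, 12.19, 12.22, 12.17 and 12.08 in HET mice. Its groups did not overlap, and the change was -0.17 (SE 0.07, unadjusted p = 0.0339). Respiratory chain genes were negative in 10 of 23 cases (median 0.00).

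Glycolysis genes were negative in 9 of 18 cases (median 0.00), and Eno2, a neuronal form of enolase, was the only member at an unadjusted p under 0.05. Eno2 read 6.10, 6.45, 6.16 and 5.82 in WT and 7.04, 6.96, 6.85, 6.60 and 6.39 in HET mice. HET 5 lay below WT 2, and the other HET arrays were above all WT arrays. The change was 0.63 (SE 0.20, unadjusted p = 0.0071), from a WT mean of 6.13 that was below the intensity filter. Slc2a1, the glucose transporter GLUT1, differed by 0.14 (SE 0.09) and Pfkp, a phosphofructokinase, by -0.16 (SE 0.10).

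Genes of the unfolded protein response were negative in 16 of 21 cases (median -0.03), but that median was 0.01 without WT 4 and 0.04 in females alone. The chaperone Hspa5 differed by -0.12 (SE 0.06), or -0.08 without WT 4. Hypermutation and class switch genes were negative in 8 of 16 cases (median -0.01), with the uracil glycosylase Ung at -0.07 (SE 0.08) and the end-joining protein Xrcc5 at 0.13 (SE 0.13). BCL2 family genes were negative in 6 of 12 cases (median -0.01), with the death promoter Bad at 0.09 (SE 0.08). Of the p53 targets 6 of 14 were negative (median 0.01), with Ccng1, a cyclin induced by p53, at 0.09 (SE 0.05). Of the interferon response genes 11 of 16 were negative, with a median of -0.05 that was 0.06 without WT 4. Ifit3 differed by 0.19 (SE 0.16), Oas3 by -0.22 (SE 0.19) and Xaf1 by -0.18 (SE 0.14), and HET 4 was the lowest HET array for each of these 3, at 7.43, 5.90 and 7.89.

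On the chromosome of Crebbp 13 of 336 tested genes (3.87%) had an unadjusted p under 0.05, against 267 of 9889 (2.7%) on the other chromosomes. Within 100 protein-coding genes of Crebbp 113 genes were listed, most of them on 1 side of it. Of the listed genes 75 were tested, with a median change of 0.00, and 3 of the tested genes had such a p. These were Clec16a, Dnaja3, a mitochondrial cochaperone, at 0.18 (SE 0.08), and Snx29, a sorting nexin, at -0.50 (SE 0.20), which lie 47, 8 and 62 genes from Crebbp. The KO changes of Dnaja3 and Snx29 were 0.16 and -0.81. On the mixed strain background, the floxed allele and other variants inherited with it on this chromosome cannot be told apart.

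The precision of these comparisons is set by the number of arrays. The median SE of a HET change was 0.10, and 85.1% of tested genes had an SE under 0.15. WT 4 was the only male WT mouse, so the term for sex rests on that array within the WT group. Of the 94 genes refitted with 1 array left out, 36 moved by over 1.5 times without some array, 21 of them without WT 4. Of the 24 list medians, 12 turned sign without some array.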

How the data were processed

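The authors deposited log2 intensities for 45101 probe sets and 14 arrays, and the submitters' processing notes name RMA, which corrects background, normalises by quantiles and summarises probes. Its version is not given in the sources used here. A shift of most genes in 1 direction would be hidden by the quantile step, and dim probe sets understate changes. Per the labels' protocols, 25 ng of RNA was amplified and 3.75 ug of cDNA was labelled with biotin. Groups and sex came from the labels.

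Controls were left out. The platform annotation named 1 gene for 34945 probe sets, several for 932 and none for 9160, and covered 18193 genes. Changes were fitted with limma 3.58.1 (lmFit, eBayes) in R 4.3.3 on the 14 arrays, modelling group and sex, 10 residual degrees of freedom, and Benjamini-Hochberg adjustment over the 10225 genes above 6.43. The code of the fit was checked on simulated data with independent noise per gene, which does not measure how many real changes these arrays could miss. The members and lists were chosen with earlier results of these data known. Named genes were Crebbp, Ep300, 11 further genes set by name (1 of them is not reported here), the 12 higher and 12 lower with the smallest p, the 5 of each with the largest change at unadjusted p under 0.05, the 5 of each with the widest gap between arrays that do not overlap, and up to 3 members of each list with the smallest p. The 24 lists held 433 genes, 25 of them without a named probe set, and 12 marker lists were kept beside them. Crebbp probe sets were fitted among all 22518 probe sets above the filter, adjusted over the 4. Alternatives covered the filter, several probe sets per gene, normalisation, sex, limma's options, array weights, the replicate block and leaving out arrays. No 2 arrays shared more than 58 identical values. The number of arrays limits precision.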

Additional observations from a re-analysis of the deposited data

Results flagged for a closer look

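Of the 94 groups of arrays examined (4 WT or 5 HET values of the genes set by name, of the 24 genes with the smallest p, of the largest changes and widest gaps, and of the Crebbp probe sets), 6 held an array that stood apart from the rest of its group by Dixon's criterion at the 95% level. Chance marks about 5% of groups, so these are given as values. Bcl6 read 12.92 in HET 2, where the other HET arrays lay between 13.01 and 13.05. Irf4 was 11.71 in HET 2, above 11.55 to 11.58 in the others. Myc was 8.09 in HET 3, below 8.75 to 9.01. Thyn1 was 9.17 in HET 1, below 9.41 to 9.50. Ptpn9 was 7.98 in WT 4, above 7.55 to 7.61 in the other WT arrays. The dimmest Crebbp probe set was 7.66 in HET 1, above 7.14 to 7.23.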

How the results depend on the processing

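Changes of 94 genes were refitted under 27 alternatives. Of them 92 kept the sign of their change throughout, and 2, both near 0, did not. With 1 array left out Bcl6 ran from -0.028 to 0.015, positive without WT 3 (0.012) and without HET 2, and Ep300 was 0.027 without WT 4 and HET 3 together, an alternative chosen after seeing the data. The number of genes called by limma stayed at 0 in the fits that left out 1 array, and became 6 with array weights. The labels number the mice, and numbers shared by groups were fitted as a replicate block, which gave 1 call, Fmn2. Same-numbered WT and HET arrays deviated together with correlations of 0.05, 0.38, 0.14 and 0.34, and 2 of 4 WT arrays correlated best with their own number. Whether the numbers mark pairs was not tested, and the main fit did not use them. The count at an unadjusted p under 0.05 was 467 without the filter, 151 with the filter at the upper quartile, 755 with array weights, 460 with only HET and WT arrays fitted, and 201 to 479 when 1 array was left out, highest without WT 4. The lower Crebbp probe set that passed stayed past the threshold in each fit, from -0.41 to -0.30 with 1 array left out. With 1 array left out 12 of the 24 list medians turned sign, among them interferon response (-0.10 to 0.06), chromatin (-0.07 to 0.01), dark zone (-0.06 to 0.01) and G2/M (-0.07 to 0.01). List medians moved by less than 1 SD of the list between arrays of 1 group in 638 of 648 refits. The exceptions were CD40 and NF-kB, at -0.012 in females alone, -0.012 with array weights and -0.117 to -0.018 with 1 array left out (nearest 0 without WT 4), cAMP and CREB, at -0.11 with the mean of all probe sets of a gene and -0.084 to -0.019 with 1 array left out (lowest without WT 1), and p53 targets, at -0.038 with the mean of all probe sets. Hypermutation was 0.038 in females alone, -0.021 to 0.037 with 1 array left out (highest without WT 4), and 0.066 without WT 4 and HET 3 together, when G2/M was 0.027 and the chromatin list 0.042. Dim probe sets are limited by RMA's compression, and the WT levels of Fmn2, Dmxl2 and Eno2 lay in that range, as did the HET levels of Gch1, Smoc1 and Nrarp.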

Other observations

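Genes of NOTCH signalling were looked at after Nrarp and Dtx1 had been seen among the lower genes, so their values describe these arrays and test nothing. Dtx1, a ubiquitin ligase that regulates NOTCH, read 10.19, 10.33, 10.40 and 10.81 in WT and 10.31, 10.20, 10.10, 10.26 and 10.12 in HET mice, a change of -0.27 (SE 0.10, unadjusted p = 0.0163). WT 4 was the highest array, WT 1 lay inside the HET range, and the change without WT 4 was -0.14. Dtx1 also belongs to the markers of marginal zone B cells, of which 4 of 5 tested genes were negative. The target Hes1 differed by -0.26 (SE 0.11), with WT 4 again highest at 7.04, and Dtx4 by -0.25 (SE 0.11), with HET 3 to 5 at 6.96, 6.87 and 7.03 below all WT arrays. The target Hes5 differed by -0.01 (SE 0.13). The receptors Notch1 and Notch2 differed by 0.23 (SE 0.18) and 0.05 (SE 0.09). In KO mice the changes of Nrarp, Dtx1, Hes1 and Dtx4 were -0.54, -0.41, -0.19 and -0.25.

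Of the probe sets without a named gene here, 3054 were above the filter, and 46 (1.51%) had an unadjusted p under 0.05 in limma. Adjusted over all 22518 probe sets above the filter 0 of them passed, with a smallest adjusted p of 0.125. Adjusted among themselves, an alternative chosen after seeing the data, 1 passed in limma, with an adjusted p of 0.0170. It read 9.08, 8.74, 8.98 and 8.64 in WT and 9.74, 9.90, 9.78, 9.58 and 9.72 in HET mice, a change of 0.90 (SE 0.12). All HET arrays lay above all WT arrays.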
